A study of Mus musculus with 8 samples.

Results

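The 10 genes described here encode the receptors through which a microglial cell recognizes antibody-coated and complement-coated particles and the first steps of the signal that leads to their engulfment. They are the Fc gamma receptors Fcgr1, Fcgr2b, Fcgr3 and Fcgr4, their common γ chain Fcer1g, the kinase Syk, the complement receptor subunits Itgam and Itgb2, the apoptotic cell receptor Mertk and the lysosomal glycoprotein Cd68. The members were chosen by symbol, with earlier results of these data known but by no threshold on a measured value, and all 10 were found among the 31406 genes of the deposited table of both groups and passed the filter on low counts. RNA was sequenced from 8 libraries of wild-type mouse microglia, the resident phagocytes of the brain, grown as primary cultures, which the methods of the study describe as prepared from the brains of C57/BL6 pups a few days old. All cultures were kept for 15 days and then activated for 48 h with LPS at 0.01% and interferon-γ (IFN-γ) at 0.002% by volume, and adenosine receptor ligands were added 24, 32 and 40 h into the activation. The methods of the study name human IFN-γ as the reagent, and its action on these mouse cells was not tested here. In 4 libraries the ligand was SCH58261, an antagonist of the adenosine A2A receptor (A2A antagonist group), and in the other 4 it was SCH58261 together with 2-Cl-IB-MECA at 200 nM, an agonist of the adenosine A3 receptor (dual group). The titles of the samples give these groups. The treatment field of the labels has 2-Cl-IB-MECA the other way round, present where the title has SCH58261 alone and absent where it has both ligands, so every direction given here rests on the titles. No label says whether libraries of a group came from separate litters or cultures, so the p-values measure the spread between these libraries, which may be technical.

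The total count per library was between 38427491 and 45878639 in the A2A antagonist group and between 32630602 and 45544451 in the dual group. The label of microglia was compared with marker genes. Markers of microglia summed to 603 to 637 CPM (counts scaled to the total count of the library, with TMM factors) with the antagonist and 616 to 628 CPM with both ligands. Markers of astrocytes summed to 5946 to 6211 and 5993 to 6457 CPM, those of fibroblasts to 2409 to 2685 and 2401 to 3025 CPM, and those of oligodendrocytes to 623 to 659 and 576 to 613 CPM. Per kilobase of gene length, the astrocyte marker Gfap (389 ± 14.4 CPM per kilobase, SD, n = 4, A2A antagonist group) was above the microglial marker Csf1r (44.6 ± 1.12). The cultures therefore held RNA of other glial and stromal cells beside that of microglia, and in such bulk samples fewer cells of a type and less RNA per cell cannot be told apart. The methods of the study report a high purity of microglia by antibody labelling of CD11b, the product of Itgam. That is a share of cells, and how it relates to these RNA levels was not tested. Markers of lymphocytes, whose B cells also carry Fcgr2b, summed to at most 0.441 CPM in any library, those of neutrophils to at most 9.27 CPM and Kit, the only gene of the mast cell list that was measured here, reached at most 29.9 CPM. Mast cells also use Fcer1g, and Kit alone does not define them. Markers of border macrophages and monocytes, of which 4 were tested, summed to 122 to 153 CPM with the antagonist and 134 to 155 CPM with both ligands. Their most abundant gene, Pf4 (76.3 ± 9.46 CPM per kilobase, SD, n = 4, A2A antagonist group), was above Csf1r per kilobase. Without division by length the order was reversed, with Pf4 at 55 CPM and Csf1r at 218 CPM in that group. The remaining tested genes of the list, Ms4a7, F13a1 and Mrc1, stood at 60.4, 14.3 and 5.05 CPM.

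Fc gamma receptors bind the constant part of immunoglobulin G on a coated particle. The activating receptors FcγRI, FcγRIII and FcγRIV (genes Fcgr1, Fcgr3 and Fcgr4) carry no signalling motif of their own and pair with the γ chain encoded by Fcer1g, whose tyrosine motif is phosphorylated by Src-family kinases and then recruits Syk. FcγRIIb (Fcgr2b) carries an inhibitory motif instead and recruits phosphatases that oppose the same signal. In macrophages, IFN-γ is known to induce Fcgr1 and Fcgr4, and the balance of activating and inhibitory receptors is known to set the threshold for engulfment.

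Promoter sequences are shown for 2 of the genes, in the RefSeq annotation of GRCm38.p6, from the bases just before the annotated start of the gene to the first bases after it and 5′ to 3′ on the strand of the gene. Fcgr4 and Fcer1g are shown because they were the 2 members whose levels did not overlap between the groups. The Fcgr4 window lies at chr1:171018676-171018975 on the plus strand and the Fcer1g window at chr1:171234300-171234599 on the minus strand. Capitals mark matches, on either strand, to the motifs given after the sequences.
Fcgr4: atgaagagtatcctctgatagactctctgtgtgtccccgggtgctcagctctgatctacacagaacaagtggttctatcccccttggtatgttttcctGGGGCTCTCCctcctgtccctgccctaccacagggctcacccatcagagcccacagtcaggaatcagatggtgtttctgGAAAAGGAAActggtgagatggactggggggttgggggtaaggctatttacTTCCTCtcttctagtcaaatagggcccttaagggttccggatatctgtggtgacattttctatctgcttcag
Fcer1g: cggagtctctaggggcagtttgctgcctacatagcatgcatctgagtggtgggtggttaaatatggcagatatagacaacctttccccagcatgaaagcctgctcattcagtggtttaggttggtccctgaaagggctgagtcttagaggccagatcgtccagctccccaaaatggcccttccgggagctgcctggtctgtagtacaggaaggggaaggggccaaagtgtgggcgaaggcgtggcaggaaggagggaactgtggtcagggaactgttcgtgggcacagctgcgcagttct
The motifs reported here were PU.1 (GAGGAA), the interferon-stimulated response element, the cAMP response element (TGACGTCA), the E-box of the factors MITF and TFEB (CACGTG) and NF-κB. The Fcgr4 window held an interferon-stimulated response element (GAAAAGGAAA), which 3.45% of the 32544 mouse promoter windows also held, an NF-κB match (GGGGCTCTCC, a motif in 8.49% of windows) and a PU.1 match (TTCCTC, in 28.1%). The Fcer1g window held no match to any of these motifs, and none of the capitals overlap each other. Of the other members, Fcgr1, Fcgr3, Itgam and Cd68 had a PU.1 match, Fcgr3 also had an NF-κB match, and Fcgr2b, Syk and Mertk had none, while no window was read for Itgb2. The window of Fcgr3 lies 5532 bases from the 5′ end of the gene in the deposited table. No member's window held the cAMP response element, which 1.8% of all windows held. A match describes the letters of the window and not a bound site.

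The comparison of the groups asked whether addition of the A3 receptor agonist to the A2A receptor antagonist changed the expression of these genes. No member was called at an adjusted p under 0.05 in edgeR's quasi-likelihood test over all genes, where 39 of 18756 genes (0.208%) were called, 30 (0.160%) lower and 9 (0.0480%) higher in the dual group. At an unadjusted p under 0.05 there were 2 members, Fcer1g and Fcgr4, both at a smaller level in the dual group, against a background of 12.8% of all genes (6.81% lower and 5.98% higher) and 16.8% of genes with a mean of at least 10 CPM. DESeq2 called 1 member, Fcer1g, beside 3.37% of the 11313 genes to which it gave an adjusted p, and so did edgeR without the low-count filter, beside 1.17% of all 31406 genes. The median log2 fold change (dual minus A2A antagonist) of the members was -0.017, beside 0.004 over all genes tested. The 95% intervals of the 10 log2 fold changes lay between -0.25 (Fcer1g) and 0.21 (Fcgr3).

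**Figure D1:**
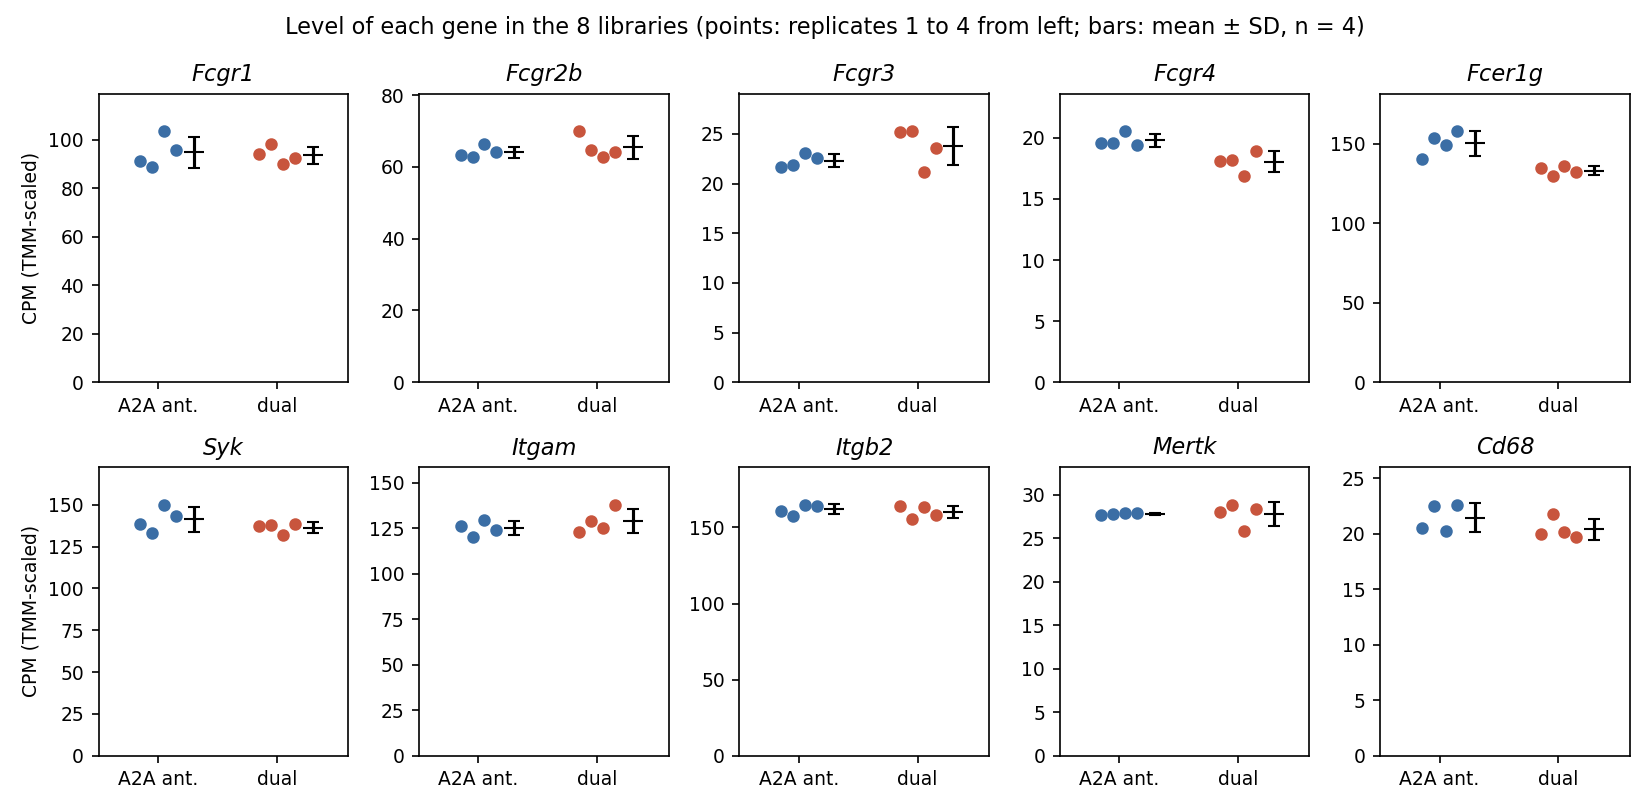
Level of each of the 10 genes (vertical axes, CPM scaled with TMM factors, each starting at 0) in the 4 A2A antagonist libraries (blue) and the 4 dual libraries (red), with the mean ± SD of each group in black. The points of the groups overlap for every gene except Fcgr4 and Fcer1g, whose dual libraries all lie under the antagonist libraries.

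Fcer1g, at chr1:171229572-171234365 (GRCm38, minus strand), encodes the γ chain shared by the activating receptors. Its level was 140.2, 154, 149 and 158 CPM in the A2A antagonist libraries and 134, 129.9, 136 and 132 CPM in the dual libraries. All dual libraries were below all antagonist libraries, with a gap of a few CPM between antagonist replicate 1 and dual replicate 3. The means were 150.3 ± 7.64 and 133 ± 2.65 CPM (SD, n = 4 each), a log2 fold change of -0.17 (SE 0.038, 95% interval -0.25 to -0.094). The adjusted p of edgeR's quasi-likelihood test was 0.0606, which missed the threshold, and the gene was number 71 of all 18756 by p-value. It was called by DESeq2 (adjusted p = 0.00197), by edgeR without the low-count filter (adjusted p = 0.00447) and by edgeR without A2A antagonist replicate 1 (log2 fold change -0.21, adjusted p = 0.0168). Leaving out each library in turn gave log2 fold changes between -0.21 and -0.15. The microglial markers as a list had summed levels that overlapped between the groups, as given above, and 3 of its 11 tested genes stood higher with both ligands and 8 lower. None was called by edgeR, and their median log2 fold change was -0.05. Csf1r, the most abundant of them per kilobase and the receptor for colony-stimulating factor 1, stood at 0.11 (SE 0.034, adjusted p = 0.171, edgeR). Its groups did not overlap, with 211 to 223 CPM with the antagonist and 226 to 244 CPM with both ligands. Aif1, which encodes the microglial protein Iba1 and is named after its values were seen, stood at -0.21 (SE 0.055, adjusted p = 0.11 by edgeR, 0.0224 by DESeq2 and 0.00817 by edgeR without the low-count filter). The part of the microglial markers in the value of Fcer1g was not tested.

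Fcgr4, at chr1:171018920-171029761 (plus strand), encodes FcγRIV, an activating receptor of intermediate affinity. Its level was 19.6, 19.6, 20.6 and 19.4 CPM with the antagonist and 18.1, 18.2, 16.9 and 18.9 CPM with both ligands. The groups did not overlap, with dual replicate 4 close to the lowest antagonist library. The log2 fold change was -0.13 (SE 0.055, 95% interval -0.25 to -0.02, adjusted p = 0.3, edgeR). The gene therefore did not pass the test over all genes. Non-overlapping groups were found for 2 of the 10 members and for 7.42% of all genes tested, 4.06% lower and 3.36% higher in the dual group (9.51% of genes with a mean of at least 10 CPM).

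Both genes are short, and the fold changes of all genes moved with gene length. Among genes with a mean of at least 10 CPM, the median log2 fold change was -0.1 for the 288 genes under 1000 bases, -0.063 for the 952 genes of 1000 to 2000 bases, -0.032 for the 2988 genes of 2000 to 4000 bases, 0.004 for the 4151 genes of 4000 to 8000 bases and 0.041 for the 2155 longer genes. Fcer1g (874 bases) belongs to the shortest class, in which 45.5% of genes had an unadjusted p under 0.05 with the smaller level in the dual group and 18.8% had non-overlapping groups in that direction. Fcgr4 (1256 bases) belongs to the next, in which 13.8% had non-overlapping groups in that direction. In single libraries, the genes under 1000 bases deviated from their mean over all libraries by a median log2 of 0.008, 0.081, 0.043 and 0.069 with the antagonist and of -0.046, -0.045, -0.044 and -0.06 with both ligands. The library nearest to the dual group in this measure, A2A antagonist replicate 1, was also the antagonist library with the lowest Fcer1g level. For Fcgr4 the lowest antagonist library was replicate 4 (19.4 CPM). In the dual group, replicate 4 had the lowest deviation, while Fcer1g was lowest in replicate 2 (129.9 CPM). A relation between this measure and the 2 genes was not tested. In a fit that removed each library's own trend of level on gene length, an alternative chosen after seeing the data, Fcer1g had a log2 fold change of -0.11 (SE 0.036, adjusted p = 0.283) and Fcgr4 of -0.079 (SE 0.055, adjusted p = 0.67, edgeR for both). No member was called in that fit, which called 9 genes (0.0480%), and 3 members had an unadjusted p under 0.05 against 9.90% of all genes. These were Fcer1g, Fcgr3 (log2 fold change 0.13, adjusted p = 0.45) and Syk (-0.081, adjusted p = 0.494, all edgeR). What set the length trend was not tested.

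**Figure D2:**
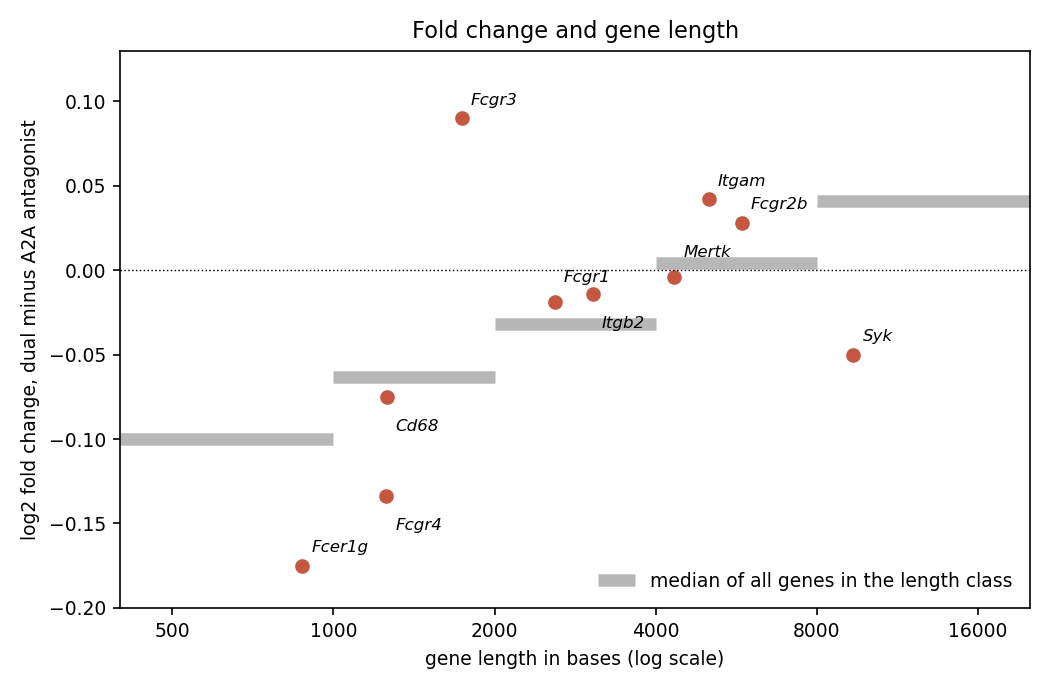
Log2 fold change of the 10 genes (red points, vertical axis, dual minus A2A antagonist) against gene length in bases (horizontal axis, log scale), with the median of all genes with a mean of at least 10 CPM in each length class as grey bars. The medians run from -0.1 under 1000 bases to 0.041 at 8000 bases and over, Fcer1g and Fcgr4 lie below their class, and Fcgr3 (0.09) and Syk (-0.05) lie farthest from theirs on the upper and the lower side among the remaining members.

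The remaining receptors for immunoglobulin G had overlapping groups. Fcgr1, at chr3:96282909-96293969 (minus strand), encodes the high-affinity receptor FcγRI and had 91.2, 88.7, 103.5 and 95.7 CPM with the antagonist and 93.9, 98.1, 89.9 and 92.3 CPM with both ligands. The 4 dual values lay inside the range of the antagonist values. Its log2 fold change was -0.019 (SE 0.045, 95% interval -0.11 to 0.076, adjusted p = 0.907, edgeR), and its sign turned without A2A antagonist replicate 3, the library with the highest value (0.025).

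Fcgr3, at chr1:171051174-171064935 (minus strand), encodes the low-affinity activating receptor FcγRIII and had 21.7, 21.9, 23.1 and 22.6 CPM with the antagonist and 25.2, 25.3, 21.2 and 23.6 CPM with both ligands. Dual replicates 1, 2 and 4 were above every antagonist library and dual replicate 3 was below all of them. Its log2 fold change was 0.09 (SE 0.058, 95% interval -0.033 to 0.21, adjusted p = 0.557, edgeR). Fcgr2b, at chr1:170958617-170976547 (minus strand), encodes the inhibitory receptor FcγRIIb and had 63.2, 62.8, 66.3 and 64.1 CPM with the antagonist and 70, 64.9, 62.6 and 64.2 CPM with both ligands. Dual replicate 1 lay above the antagonist range and dual replicate 3 just under it. Its log2 fold change was 0.028 (SE 0.041, 95% interval -0.058 to 0.12, adjusted p = 0.832, edgeR). The transcripts of Fcgr2b and Fcgr3 shared 233 words of 31 bases, which takes 13.4% of the words of Fcgr3, so a part of the reads of these receptors could have been divided between them in counting. No word of the Fcgr1 or Fcer1g transcripts was found in another gene, and 1.39% of those of Fcgr4 were.

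Syk, at chr13:52583173-52648792 (plus strand), encodes the tyrosine kinase that binds the phosphorylated γ chain. Its level was 138, 133, 150.1 and 143 CPM with the antagonist and 137, 138, 132 and 139 CPM with both ligands, and the groups overlapped. The log2 fold change was -0.05 (SE 0.039, 95% interval -0.13 to 0.031, adjusted p = 0.633, edgeR).

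**Figure D3:**
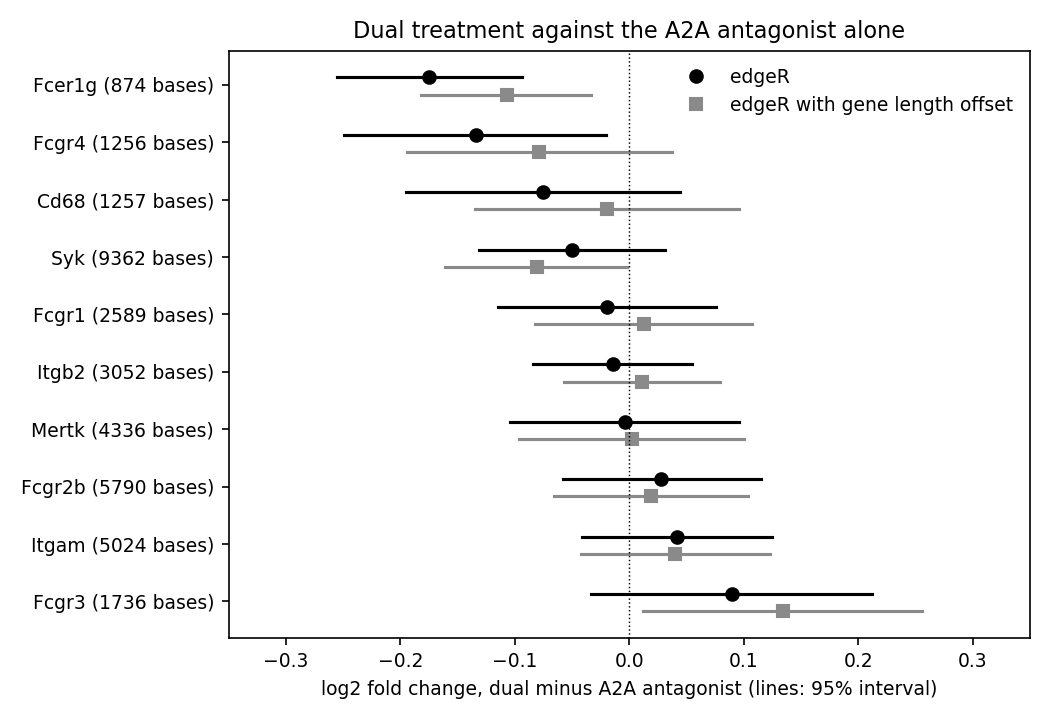
Log2 fold change of each gene (horizontal axis, dual minus A2A antagonist) with its 95% interval, from edgeR as tested (black circles) and with the gene length offset (grey squares), with gene lengths beside the symbols. The black intervals of Fcer1g (-0.25 to -0.094) and Fcgr4 (-0.25 to -0.02) leave out 0 and all others include it, and with the offset those of Fcer1g, Syk and Fcgr3 leave it out.

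Levels of different genes were compared per kilobase of gene length. In the A2A antagonist group Fcer1g was the most abundant of the members at 172 ± 8.74 CPM per kilobase (SD, n = 4), followed by Itgb2 at 53.1 ± 1.05, Fcgr1 at 36.6 ± 2.51 and Itgam at 24.9 ± 0.782. Cd68 (17.1 ± 1.01), Fcgr4 (15.8 ± 0.412) and Syk (15.1 ± 0.772) followed, with Cd68 overlapping Fcgr4 and Fcgr4 overlapping Syk over the libraries. Fcgr3 (12.9 ± 0.363), Fcgr2b (11.1 ± 0.267) and Mertk (6.41 ± 0.0196 CPM per kilobase) were the least abundant. In the dual group the order was the same except that Syk (14.6 ± 0.337) stood before Fcgr4 (14.4 ± 0.68), whose libraries overlapped those of Syk and of Fcgr3 (13.7 ± 1.11 CPM per kilobase). Among the receptors for immunoglobulin G, the high-affinity Fcgr1 was thus highest and the inhibitory Fcgr2b lowest per kilobase in both groups. The place of Fcgr2b rests on its length of 5790 bases, which takes in all its annotated exonic bases. Without division by length, Fcgr2b stood at 64.1 CPM with the antagonist, above Fcgr3 (22.3) and Fcgr4 (19.8). With both ligands these levels were 65.4, 23.8 and 18 CPM.

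Ratios within a library do not depend on its scaling, and 5 were compared between the groups by exact permutation (two-sided, 70 arrangements), with adjustment over the 5. The activating receptors Fcgr1, Fcgr3 and Fcgr4 together exceeded the inhibitory Fcgr2b by a log2 ratio of 2.56 ± 0.035 with the antagonist and 2.51 ± 0.064 with both ligands (per kilobase, SD, n = 4 each). The linear ratios were 5.89 and 5.68, and the log2 difference of -0.051 (SE 0.037, exact permutation p = 0.229, adjusted p = 0.357) was within the spread of the libraries. The size of these ratios depends on the gene lengths used.

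The ratio of Fcgr4 to Fcgr3 set the intermediate-affinity beside the low-affinity activating receptor. It was 1.25, 1.24, 1.23 and 1.19 in the antagonist libraries and 0.994, 0.994, 1.1 and 1.11 in the dual libraries. The groups did not overlap, and in the dual group replicates 1 and 2 had nearly equal levels of both receptors while replicates 3 and 4 had more Fcgr4. The log2 ratio was 0.29 ± 0.031 against 0.069 ± 0.09 (SD, n = 4 each), a difference of -0.22 (SE 0.048). The exact permutation p was 0.0286, the smallest that 4 against 4 libraries allow, and 0.143 after adjustment over the 5 ratios. A ratio that reaches this smallest p alone cannot pass 0.05 after that adjustment. The difference did not pass, and the test could not decide on it. With the gene length offset the differences were -0.21 for this ratio, -0.002 for the activating receptors over Fcgr2b (adjusted p = 0.971, exact permutation), 0.028 for Itgam to Itgb2, -0.09 for Fcer1g to Tyrobp and 0.079 for Mertk to Axl.

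The γ chain beside Tyrobp, the adaptor that serves other activating receptors such as Trem2, had a log2 ratio of 0.6 ± 0.079 with the antagonist and 0.52 ± 0.079 with both ligands. The difference of -0.085 (SE 0.056, exact permutation p = 0.229, adjusted p = 0.357, n = 4 each) was within the spread. Tyrobp, at 667 bases a still shorter gene, had a log2 fold change of its own of -0.094 (SE 0.057, adjusted p = 0.521, edgeR).

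**Figure D4:**
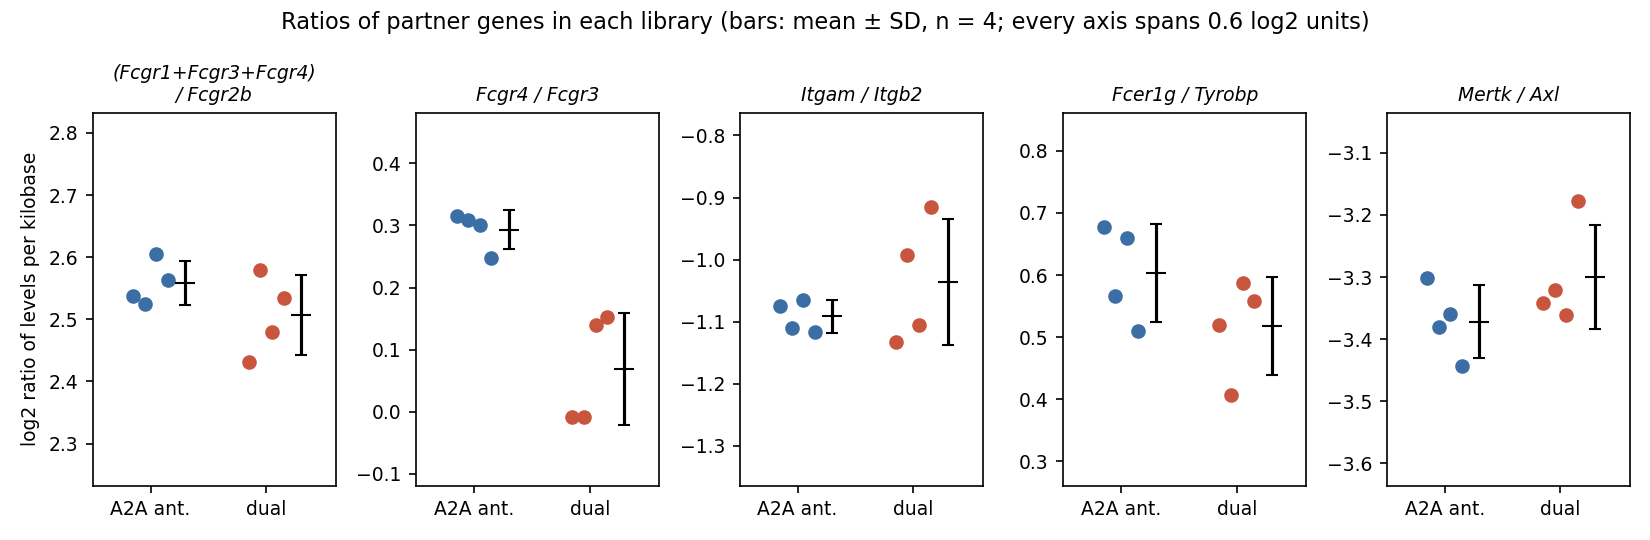
Log2 ratios of partner genes, per kilobase, in each library of the A2A antagonist (blue) and dual (red) groups, with mean ± SD in black and axes of equal span that do not start at 0. The ratio of Fcgr4 to Fcgr3 is the only one of the 5 without overlap, from 0.25 to 0.32 with the antagonist and from -0.009 to 0.15 with both ligands.

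Itgam and Itgb2 encode the α and β subunits (CD11b and CD18) of complement receptor 3, which takes up particles coated with the complement fragment iC3b. Itgb2, at chr10:77530252-77565708 (plus strand), had 161, 158, 165 and 164 CPM with the antagonist and 164, 156, 163 and 158 CPM with both ligands. The groups overlapped almost entirely, and the log2 fold change was -0.014 (SE 0.033, 95% interval -0.084 to 0.055, adjusted p = 0.903, edgeR). Itgam, at chr7:128062640-128118491 (plus strand), had 126, 120.3, 129.8 and 124 CPM with the antagonist and 123, 129, 125 and 138 CPM with both ligands. Dual replicate 4 was above every other library, and the log2 fold change was 0.042 (SE 0.04, 95% interval -0.041 to 0.12, adjusted p = 0.711, edgeR). In the annotation, 68.7% of the exonic bases of Itgam also belong to Gm49368 on the same strand, so how its reads were divided in counting is uncertain. The log2 ratio of Itgam to Itgb2 was -1.09 ± 0.026 and -1.04 ± 0.1, a difference of 0.055 (SE 0.052, exact permutation p = 0.371, adjusted p = 0.371, n = 4 each).

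Mertk, at chr2:128698956-128802894 (plus strand), encodes a receptor tyrosine kinase that recognizes apoptotic cells through the bridging ligands Gas6 and protein S. Its level was 27.7, 27.8, 27.9 and 27.9 CPM with the antagonist and 28, 28.9, 25.8 and 28.4 CPM with both ligands. The coefficient of variation was 0.31% over the antagonist libraries and 4.87% over the dual libraries, among which replicate 3 had the lowest value. At 1069 to 1267 counts per antagonist library, 0.31% is smaller than counting noise, so the 2 values are not read as a difference in spread. The log2 fold change was -0.004 (SE 0.047, 95% interval -0.1 to 0.096, adjusted p = 0.984, edgeR). The log2 ratio of Mertk to its relative Axl, the more abundant of these receptors here, was -3.37 ± 0.059 with the antagonist and -3.3 ± 0.084 with both ligands (difference 0.072, SE 0.051, exact permutation p = 0.286, adjusted p = 0.357, n = 4 each).

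Cd68, at chr11:69664213-69666153 (minus strand), encodes a glycoprotein of the LAMP family found in the endosomes and lysosomes of phagocytes. It had 20.5, 22.5, 20.2 and 22.6 CPM with the antagonist and 19.9, 21.8, 20.2 and 19.7 CPM with both ligands. The groups overlapped, and the log2 fold change was -0.075 (SE 0.057, 95% interval -0.19 to 0.044, adjusted p = 0.624, edgeR). With 1257 bases it belongs to the length class whose median was -0.063, and with the gene length offset it stood at -0.019.

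Other genes of the pathway were read from 8 lists with 174 genes, of which 164 were tested. None was called by edgeR at an adjusted p under 0.05. At an unadjusted p under 0.05 there were 32 (19.5%), 12 higher and 20 lower in the dual group, against 12.8% of all genes and 16.8% of those with a mean of at least 10 CPM. By direction, 5.98% of all genes were higher and 6.81% lower, and the counts of each list below stand beside these shares. The groups did not overlap for 19 genes (11.6%), 6 higher and 13 lower, against 7.42% of all genes and 9.51% of those with a mean of at least 10 CPM. DESeq2 called 7 of the 164 and edgeR without the low-count filter called 8. The shares of 3.37% and 1.17% given above rest on other sets of genes, so these counts cannot be read as an excess over them. The share of 3.37% covers only genes to which DESeq2 gave an adjusted p, and some of the 164, such as Ceacam1, had none. The share of 1.17% takes in genes that did not pass the low-count filter, which all of the 164 passed. With the gene length offset no gene of the lists was called and 19 (11.6%) had an unadjusted p under 0.05, 15 of them lower, against 9.90% of all genes in that fit.

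Among the 5 tested genes of the other Fc receptors, 1 had an unadjusted p under 0.05. This was Fcrls, an Fc receptor-like gene that is known as a marker of microglia. Its level was 33.4, 31.7, 33.6 and 33.4 CPM with the antagonist and 22.9, 22, 28.6 and 31.5 CPM with both ligands. The groups did not overlap, with dual replicates 1 and 2 far below the others, and the log2 fold change was -0.33 (SE 0.083, adjusted p = 0.0952 by edgeR, 0.0137 by DESeq2 and 0.000923 without the low-count filter). Fcgrt, the neonatal Fc receptor that recycles immunoglobulin G, had a log2 fold change of -0.034 (SE 0.049, adjusted p = 0.832, edgeR).

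Of the 22 tested kinases and adaptors next to the receptors, 4 had an unadjusted p under 0.05, all with the smaller level in the dual group. The share of all genes in that direction was 6.81%. Blnk, an adaptor downstream of Syk, had 23.5, 26, 24.9 and 25.6 CPM with the antagonist and 19.3, 19.9, 20.4 and 23.7 CPM with both ligands. Dual replicate 4 overlapped the antagonist range, and the log2 fold change was -0.26 (SE 0.063, adjusted p = 0.0789 by edgeR, 0.0117 by DESeq2 and 0.00772 without the low-count filter). It was -0.27 with the gene length offset. Grb2, the adaptor that links receptors to Ras, had a log2 fold change of -0.1 (SE 0.037, adjusted p = 0.24, edgeR).

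Of the 23 inhibitory receptors and negative regulators, 4 had an unadjusted p under 0.05 with the larger level in the dual group and 3 with the smaller. The shares of all genes were 5.98% and 6.81%. Ceacam1, an inhibitory receptor with low counts here, had 1.01, 1.03, 1.51 and 1.12 CPM with the antagonist and 2.05, 1.76, 1.63 and 1.71 CPM with both ligands. The groups did not overlap, and the log2 fold change was 0.61 (SE 0.18, adjusted p = 0.15, edgeR). Lilrb4a, an inhibitory receptor named here after its values were seen and with a close paralog that may share its reads, had 31.9, 25.8, 31.1 and 25.6 CPM and 35, 35.1, 35 and 34.9 CPM, a log2 fold change of 0.29 (SE 0.064, adjusted p = 0.0606 by edgeR, 0.00482 by DESeq2 and 0.00115 without the low-count filter). Its dual libraries lay above every antagonist library. Sirpa, which binds the CD47 signal on healthy cells, had a log2 fold change of -0.066 (SE 0.031, adjusted p = 0.387, edgeR), and Ptpn11, a tyrosine phosphatase, of 0.013 (SE 0.031, adjusted p = 0.908, edgeR).

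Enzymes further downstream and integrin genes were read in the same way. Of 24 genes of the PI3K, PLC-gamma, PKC and Vav enzymes, 1 had the larger and 2 the smaller level in the dual group at an unadjusted p under 0.05, and Akt1, a kinase activated through PI3K, had the largest log2 fold change (-0.11, SE 0.034, adjusted p = 0.16 by edgeR, called by DESeq2). Mapk3, a MAP kinase and the most abundant of that list per kilobase, stood at -0.058 (SE 0.038). Of 18 integrin partners and regulators, 2 had the smaller level at an unadjusted p under 0.05. These were Icam1, a ligand of Itgb2 integrins (-0.13, SE 0.032, adjusted p = 0.0913 by edgeR, 0.00418 by DESeq2 and 0.0368 without the low-count filter), whose groups did not overlap, and Itgal, a partner of Itgb2 (-0.12, SE 0.043, adjusted p = 0.234, edgeR), both named after their values were seen. Itgb3 had the largest log2 fold change of the list (0.19, SE 0.2), and Itgb1 and Rap1b, the most abundant per kilobase, stood at 0.038 (SE 0.037) and -0.061 (SE 0.041).

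Of the 19 tested genes for the uptake of apoptotic cells, 5 had an unadjusted p under 0.05, all with the larger level in the dual group. The share of all genes in that direction was 5.98%. Among genes with a mean of at least 10 CPM it was 384 of 2155 in the longest length class and 223 of 4151 at 4000 to 8000 bases. Lrp1, a large endocytic receptor, had the largest log2 fold change of these at a mean of at least 1 CPM (0.16, SE 0.052, adjusted p = 0.172, edgeR). With 17717 bases it belongs to the longest class of genes, and it stood at 0.095 (adjusted p = 0.599) with the gene length offset. Thbs1, also among the 5 and named after its values were seen, has 6073 bases. It stood at 0.13 (SE 0.04, adjusted p = 0.156) and, with the offset, at 0.12 (adjusted p = 0.282, edgeR for both). Calr, the engulfment signal calreticulin, had a log2 fold change of -0.008 (SE 0.029). Of the 19 tested genes of the LAMP family and phagosome maturation, 2 had the smaller level, among them Rab20 (-0.18, SE 0.067, adjusted p = 0.27, edgeR), a small GTPase of phagosomes. The lysosomal proteases Ctsd and Ctsb had log2 fold changes of -0.064 (SE 0.044) and -0.025 (SE 0.029).

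The members were also set beside activated cells that had received vehicle, for which only the authors' mean normalized counts were used, so no error or test can be given. The methods of the study state 4 replicates for vehicle and 3 for ligands, and a figure caption there has these numbers the other way round. Each ligand group had 4 libraries here. None of the 10 members was past 1.5-fold in either direction, where 16.8% of 19557 genes were (4.23% higher and 12.6% lower with the antagonist). That share takes in genes from a mean of 10 upward, while the lowest mean of a member was 835 (Fcgr4, control). The share is therefore not one of genes at the members' level. The authors' mean for Fcer1g was 6481 with the antagonist and 4811 in control, a log2 ratio of 0.43, and for Fcgr2b it was 2763 and 2110, a log2 ratio of 0.39. The means of the other receptors for immunoglobulin G differed less, with log2 ratios of -0.06 for Fcgr1, -0.17 for Fcgr3 and 0.031 for Fcgr4. Syk stood at 0.046, Itgam at -0.21, Itgb2 at -0.15, Mertk at -0.095 and Cd68 at -0.053. Of the 8 fibroblast markers, 6 were past 1.5-fold lower with the antagonist, with a median log2 ratio of -1.61 over the list. The microglial markers had a median of 0.031 with 3 of 11 past 1.5-fold lower. Those of border macrophages and monocytes had a median of -1.06 with 3 of 6 past 1.5-fold lower. The part of such differences between the cultures in the members' values was not tested. The same A2A antagonist libraries enter both comparisons, so their values for Fcer1g, 0.43 against control and -0.17 for the dual group against the antagonist, are not independent of each other.

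**Figure D5:**
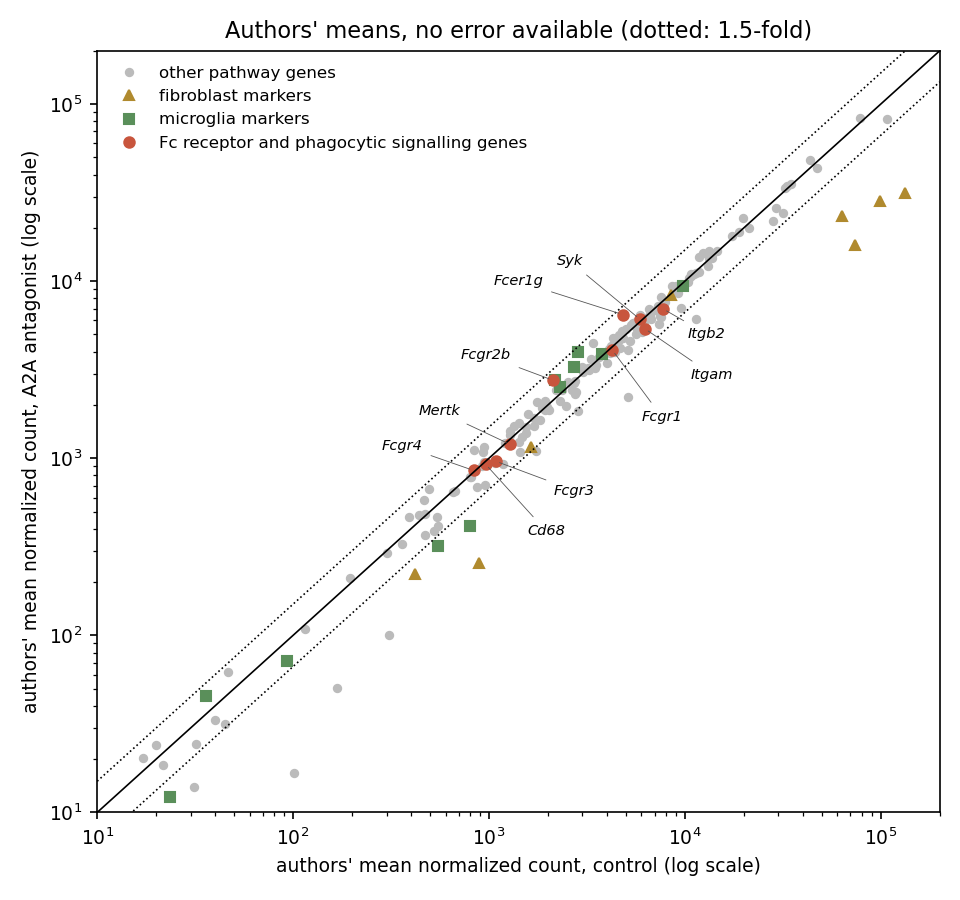
Authors' mean normalized counts with the A2A antagonist (vertical axis, log scale) and in control (horizontal axis, log scale), with a solid line at equality and dotted lines at 1.5-fold. The 10 members (red) lie between the dotted lines, while 6 of the 8 fibroblast markers (triangles) lie under the lower one, and grey points are the other genes of the pathway lists.

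Within the groups, the members' log2 levels were compared over the 8 libraries as deviations from the group mean. Over the 45 pairs, the correlation ran from -0.52 (Itgb2 and Mertk) to 0.92 (Fcgr1 and Syk) with a median of 0.3, and 28 pairs were above 0. Fcgr3 and Mertk (r = 0.87), Fcgr4 and Mertk (r = 0.78) and Fcgr2b and Fcgr3 (r = 0.75) also deviated together, while Fcer1g and Fcgr3 did not (r = -0.11). The libraries share their depth and scaling across all pairs, and Fcgr2b and Fcgr3 share sequence, so these values describe these libraries only. Over the 8 libraries without removal of the group means, the genes most like Fcer1g among 10533 with a mean of at least 10 CPM were Stk40 (r = 0.98), Rps20 (r = 0.97) and Mrpl42 (r = 0.97). Those most like Fcgr4 were Cct2 (r = 0.98), Cnih1 (r = 0.98) and Chchd1 (r = 0.97), and those most like Fcgr1 were Usp42 (r = 0.97), Arfrp1 (r = 0.95) and Kansl2 (r = 0.95). Brd3 (r = 0.96), Il10ra (r = 0.96) and Papss2 (r = 0.94) were most like Fcgr3, and Mfap4 (r = 0.96), Lmo2 (r = 0.95) and Hmgb2 (r = 0.94) were most like Fcgr2b. These are the highest of 10533 values for each gene and were not tested, and reads of Rps20 may be shared with copies of that gene.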

How the data were processed

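Libraries were grouped by sample title. According to the methods of the study and the submitters' processing notes, the authors aligned paired-end reads with Hisat2 and counted them per gene with featureCounts 1.5.0-p3, and the strand setting was not given in the sources used here. The deposited counts are raw, per library and not pooled, and the 30302 genes held by both deposited tables had equal counts in the A2A antagonist libraries. The FPKM values deposited by the authors were used only for an alternative value of the ratios. For control, only the authors' mean normalized count of each group, a signal obtained with DESeq2 size factors, was used, and 9 columns of single control libraries were left out. The fold changes and p-values that the authors deposited were not used. Depth was 32630602 to 45878639 counts per library, and pairs of libraries of a group differed by 3.58 to 8.65 times the chi-square of counting noise per degree of freedom.

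Counts were tested with edgeR 4.0.16 (R 4.3.3) after filterByExpr (minimum count 10), TMM scaling and the quasi-likelihood F test, Benjamini-Hochberg adjustment over 18756 genes and a threshold of 0.05. Intervals are at 95% and p-values two-sided. Levels are CPM scaled with TMM factors, and ratios were tested by exact permutation over 70 arrangements. Standard errors were derived from the F statistics. The scripts were tested on simulated data. Alternatives were DESeq2 1.42.0, total counts, no filter, deposited FPKM (ratios), a replicate block, each library left out and, added after seeing the data, a gene length offset. The coordinates of all 10 members are those of GENCODE M21 (GRCm38). The members and lists were chosen with earlier results of these data known. Pathway genes were named by a rule (genes called, the 2 most abundant per length and the largest fold change at a mean of at least 1 CPM in each list), and any other gene is named after its values were seen. Of 10 members, 9 had a promoter window in RefSeq. A few list genes were not analysed here. Details of a further gene list and a further motif are not reported here.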

Additional observations from a re-analysis of the deposited data

How the results depend on the processing

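Every member was tested under each alternative. DESeq2 and edgeR without the low-count filter called 381 and 366 genes in all against 39 in edgeR as tested, 1 and 1 of the members (Fcer1g) against 0, and 8 and 9 of the members and pathway genes together against 0. Without single libraries, the number of genes called ran from 0 to 172, with 172 without A2A antagonist replicate 1, 5 without replicate 2, 6 without replicate 3 and 0 without replicate 4 of that group, and 0 without dual replicate 3. The number of members called ran from 0 to 1 (Fcer1g, without A2A antagonist replicate 1), and that of members and pathway genes from 0 to 4, with 4 without A2A antagonist replicate 1 and 2 without dual replicate 4. The gene length offset, added after seeing the data, left 9 genes called. The deviations from the group mean of libraries with the same replicate number were correlated at -0.158, -0.047, -0.09 and -0.206. Those of libraries with different numbers were correlated at -0.141 to 0.216. The replicate numbers thus gave no sign of pairing, but such centred values cannot show whether libraries shared a culture or litter. A fit with the replicate number as a block called 17 genes and no member. The sign of 4 fold changes near 0 turned: Fcgr1 had 0.025 without A2A antagonist replicate 3 and 0.013 with the offset, Fcgr2b -0.005 without dual replicate 1, Mertk 0.006 with total counts, 0.028 without dual replicate 3 and 0.002 with the offset, and Itgb2 0.011 with the offset. Without single libraries, the log2 fold changes of these ran from -0.05 to 0.025 for Fcgr1, -0.005 to 0.046 for Fcgr2b and -0.024 to 0.028 for Mertk. The causes were not tested. The directions of Fcgr3, Fcgr4, Fcer1g, Syk, Itgam and Cd68 were the same in all 14 alternatives, and those of the 5 ratios in all 11. With 1 library left out, the exact test cannot go below 0.0571 (35 arrangements), so it could not pass for any ratio even before adjustment. Counts of the members were between 591 and 7501 per library, and a missed threshold at 4 libraries a group does not show that the groups were alike.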

Other observations

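In the authors' mean normalized counts, 9 of the 165 pathway genes with a sufficient mean (5.45%) stood past 1.5-fold lower with the A2A antagonist than in control and 2 (1.21%) higher, beside 12.6% and 4.23% of all genes, and no error or test can be given. Lamp3, a LAMP family gene of maturing dendritic cells, had means of 16.8 and 101 (log2 ratio -2.59), the inhibitory receptor Ceacam1 50.4 and 167 (-1.73) and the integrin subunit Itgb3 100.3 and 308 (-1.62). Cd36, a scavenger receptor, had means of 2224 and 5100 (-1.2), Anxa1, a ligand of formyl peptide receptors, 6104 and 11450 (-0.91), and the integrin subunit Itgax 7.7 and 15.5 (-1.01). The other 3 were Cd300lb (-1.15), Pld1 (-0.66) and Fcgrt (-0.63), and the 2 higher genes, both with low means, were Atp6v0d2 (13.4 and 6.51) and Fcer2a (11.9 and 7.48). Fibroblast markers Col1a1 and Col3a1 had log2 ratios of -2.21 and -2.09 in the same means, and how far the cell makeup of the cultures bears on these genes was not tested. Against the same antagonist libraries, the dual group had a log2 fold change of 0.61 for Ceacam1 (adjusted p = 0.15, edgeR) and 0.19 for Itgb3 (adjusted p = 0.757, edgeR).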
